A study of Arabidopsis thaliana with 12 samples.

Results

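The transcriptome of pnet2_abc, an Arabidopsis thaliana mutant of PNET2A, PNET2B and PNET2C, was compared with that of wild type (WT, ecotype Col-0). The comparison was set by genotype label: the 3 pnet2_abc libraries and the 3 WT libraries make up 6 of the 12 RNA-seq libraries of the series, and the other 6 come from the double mutants pnet2_ac and pnet2_bc. All were made from untreated whole seedlings of 7 days, grown on MS plates with 1% sucrose, and all 4 genotypes are labelled Col-0. The labels give neither the mutant alleles nor which gene is PNET2A, B or C, and separate plants are not stated for the 3 libraries of a genotype, so p-values measure the spread between these libraries. The whole transcriptome was described, with 60 functional groups and 26 transcription factor families defined by annotated names.

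PNET2 proteins belong to a membrane protein family of the inner nuclear envelope that plants share with animals. The nuclear envelope separates the genome from the cytoplasm, carries the nuclear pores, and on its inner face meets a lamina to which parts of the chromatin are tethered. A seedling invests much of its messenger RNA in nuclear-encoded photosynthesis proteins, in ribosomes and in growth, and these programmes are known to be turned down when immune and stress signalling is turned up.

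The reference annotation holds 3 genes with the DUF2215 domain of this family. AT3G49840 (chr3:18484513-18487043, plus strand; coordinates here and below are of TAIR10.1) had 2.1, 2.31 and 2.09 CPM in the pnet2_abc libraries, against 9.3, 8.03 and 10.8 CPM in the WT libraries (CPM, the count scaled to the TMM-adjusted library; log2 fold change -2.11 ± 0.18 (SE), edgeR adjusted p = 3.1e-07). AT5G67610 (chr5:26960904-26963736, minus strand) had 12, 11 and 10.6 CPM in the pnet2_abc libraries, against 22.3, 18.9 and 23.6 CPM in the WT libraries (log2 fold change -0.95 ± 0.10 (SE), edgeR adjusted p = 2.4e-06). Both were lower in every pnet2_abc library than in any WT library. By CPM, 69.4% of all tested genes likewise did not overlap between the genotypes, in either direction. AT1G28760 (chr1:10103081-10104883, plus strand) had 45.8, 54.1 and 42.4 CPM in the pnet2_abc libraries, against 3.65, 3.79 and 4.48 CPM in the WT libraries (log2 fold change 3.58 ± 0.14 (SE), edgeR adjusted p = 2.4e-10), so its counts were higher in the mutant. Reads counted anywhere in a gene may come from RNA that a mutant allele still makes, so this gene does not check the label.

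The pnet2_abc libraries held 66052012, 65758625 and 76851219 counts and the WT libraries 79283837, 71779655 and 79237363. The first principal component of these 6 libraries held 76.4% of the variance and separated the genotypes, and the second held 7.2% and set WT replicate 1 apart from the other WT libraries. Without that library 14388 genes passed the test given below. All 5 mesophyll markers, which include the Rubisco small subunit gene RBCS1A, fell, with a summed level of 13862 to 16009 TPM in pnet2_abc and 48644 to 52415 TPM in WT. Of the vasculature markers 4 of 5 fell (sums 74.4 to 98.5 TPM in pnet2_abc and 102 to 156 TPM in WT), of the guard cell markers 3 of 4 fell (sums 28.7 to 38.7 TPM in pnet2_abc and 63.1 to 78.5 TPM in WT), and of the root patterning markers 3 of 6 fell, namely SHR, SCR and CASP1 (sums 38.7 to 44.6 TPM in pnet2_abc and 55.3 to 67.2 TPM in WT). The fall of CASP1 and of the xylem marker XCP1 passed the test in some settings and not in others. Of all tested genes 32.0% fell and 32.5% rose, shares against which counts in such small sets are to be read. Root hair sums overlapped, at 7.83 to 20.4 TPM in pnet2_abc and 8.61 to 17.3 TPM in WT. Among the 4 root hair markers only RHD6 rose, in some settings and not in others. Of 5 seed markers 3 were tested and 0 were called. Among 5 shoot meristem and boundary markers only the boundary gene CUC1 rose (12, 16.2 and 15.3 TPM in pnet2_abc, against 0.437, 0.34 and 0.138 TPM in WT), and among 5 flower markers only SEP3 rose (62.6, 45.3 and 36.6 TPM in pnet2_abc, against 9.19, 12.1 and 7.9 TPM in WT), while AP1, AP3, PI and AG each averaged at most 2.00 TPM in either genotype. In RNA of whole seedlings, fewer cells of a type and less RNA per cell cannot be told apart.

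Most of the transcriptome differed. Of 23330 genes tested, 15054 passed an edgeR adjusted p of 0.05, which is 64.5%; 7587 were higher (32.5%) and 7467 lower (32.0%) in pnet2_abc. At least 2-fold changes were called for 3725 higher genes (16.0%) and 4192 lower genes (18.0%), together 33.9%. Which direction held more of them depended on the scaling: 4515 were higher and 3465 lower with library totals alone, and 3765 were higher and 2577 lower by limma on log2(TPM + 1). Higher genes reached larger folds: 1091 were at least 8-fold higher and 549 at least 8-fold lower, and 471 were at least 32-fold higher and 160 at least 32-fold lower. The log2 fold change over all tested genes had a median of 0.011 and quartiles of -0.77 and 0.71. The share of called genes that were higher, 50.4%, depended on the scaling: it was 60.2% with library totals alone, which moved the median of all genes to 0.20, and 61.7% by limma on log2(TPM + 1), where that median was 0.20 too. Group medians below are read against the median of all genes for that reason. In the text, "rose" and "fell" are used of genes that passed the adjusted p of 0.05, and the largest rise or fall of a group is taken among members with a mean of at least 5 CPM. For every gene given library by library, all pnet2_abc libraries lay on one side of all WT libraries. By CPM this held for 69.4% of all tested genes too, and most genes so given were picked for large called changes.

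Among called protein-coding genes averaging 20 CPM or more, with under 300 bases of overlap with another gene, the largest rise was of a gene without a count in WT. AT3G29970, annotated as a B12D protein, had 84.9, 97.9 and 69.1 CPM in pnet2_abc and no count in any WT library; against a floor of 3 counts over the WT libraries together, 0.0137 CPM, it was at least 6129.9-fold higher. The next was AT4G12735, of no annotated function. GPT2, which carries glucose 6-phosphate into plastids, had 114, 186 and 169 CPM in the pnet2_abc libraries, against 0.538, 0.465 and 0.391 CPM in the WT libraries (log2 fold change 8.39 ± 0.66 (SE), edgeR adjusted p = 1.1e-07). The cysteine protease gene CEP1 averaged 130.0 ± 4.34 CPM in pnet2_abc and 0.433 ± 0.17 CPM in WT (SD, n = 3 each, as for all averages below), and the lipid transfer protein gene LTP4 averaged 49.5 ± 11.4 CPM in pnet2_abc and 0.187 ± 0.169 CPM in WT. None of these overlapped between genotypes, as held for 69.4% of all tested genes. BPS3 followed, and then PR1, the classical marker of salicylic acid responses, with 156, 215 and 140.3 CPM in the pnet2_abc libraries, against 0.525, 1.68 and 0 CPM in the WT libraries (log2 fold change 7.88 ± 1.75 (SE), edgeR adjusted p = 0.0014). The remaining genes of the 12 largest rises were the beta-amylase BAM5, the thioredoxin TH8, AT1G74010, the nitrate transporter NRT1.8 and ICL, isocitrate lyase of the glyoxylate cycle, with log2 fold changes between 7.87 and 7.37.

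At the other end stood TPS-CIN (AT3G25830), a terpene synthase of 1,8-cineole formation in roots, with no count in any pnet2_abc library, against 71, 69 and 92.2 CPM in WT, at least 5851-fold lower. Its near-identical neighbour AT3G25820 had 39.5, 21.6 and 14.6 CPM in pnet2_abc, against 68.4, 94.9 and 96 CPM in WT, and reads shared by the copies make the split between them uncertain. TPS-CIN also had no count in pnet2_bc replicates 2 and 3 but 83.6 CPM in pnet2_bc replicate 1, so its absence did not follow the genotype labels. Next came AT1G13650, of no annotated function, and AT3G28220, a TRAF-like protein. FBA5, a fructose-bisphosphate aldolase, averaged 2.54 ± 1.86 CPM in pnet2_abc and 156 ± 7.67 CPM in WT, and LOG1, an enzyme that releases active cytokinin, averaged 1.31 ± 0.601 CPM in pnet2_abc and 67 ± 8.24 CPM in WT. BT1, AT5G48490, NCED4 (a carotenoid cleavage dioxygenase), AT1G67865, AT5G19190, AT2G27420 and AT4G13575 completed the 12 largest falls, with log2 fold changes between -5.47 and -4.65.

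In level, the largest loss was of RBCS1A, a Rubisco small subunit gene. RBCS1A had 7627, 7062 and 6963 TPM in the pnet2_abc libraries, against 18746, 19783 and 20307 TPM in the WT libraries (log2 fold change -1.66 ± 0.063 (SE), edgeR adjusted p = 1.6e-10). The other largest losses in TPM were of CAB1, RBCS3B, LHB1B2 (which overlaps an opposite-strand gene by 1045 bases, so that reads of the pair cannot be told apart), RCA, PSBR, CAB2, RBCS2B, LHCA4 and CAB3, all light-harvesting, photosystem or Rubisco genes; the RBCS and CAB copies are near-identical, and reads may be split between them. The largest gain was of GASA1, a small cysteine-rich peptide, with 5838, 6413 and 5868 TPM in the pnet2_abc libraries, against 447, 451 and 430.2 TPM in the WT libraries (log2 fold change 3.56 ± 0.072 (SE), edgeR adjusted p = 1.1e-11). It was followed by the hybrid proline-rich or lipid transfer proteins EARLI1 (5091 ± 486 TPM in pnet2_abc and 122 ± 16.2 TPM in WT), LTP2 (3382 ± 608 TPM in pnet2_abc and 90.6 ± 11.6 TPM in WT) and AZI1 (3249 ± 280.4 TPM in pnet2_abc and 103 ± 16.7 TPM in WT), AZI1 being required for priming of systemic immunity. The metallothionein gene MT2B, the nitrilase gene NIT1, the ribosomal RNA gene AT3G41768, the peroxidase gene PRXCB, GRP-3 and CWLP, the last with an opposite-strand overlap of 1372 bases, completed the 10 largest gains. The lipid transfer protein genes as a group had 35 of 75 lower and 21 higher (median -0.49).

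**Figure D1:**
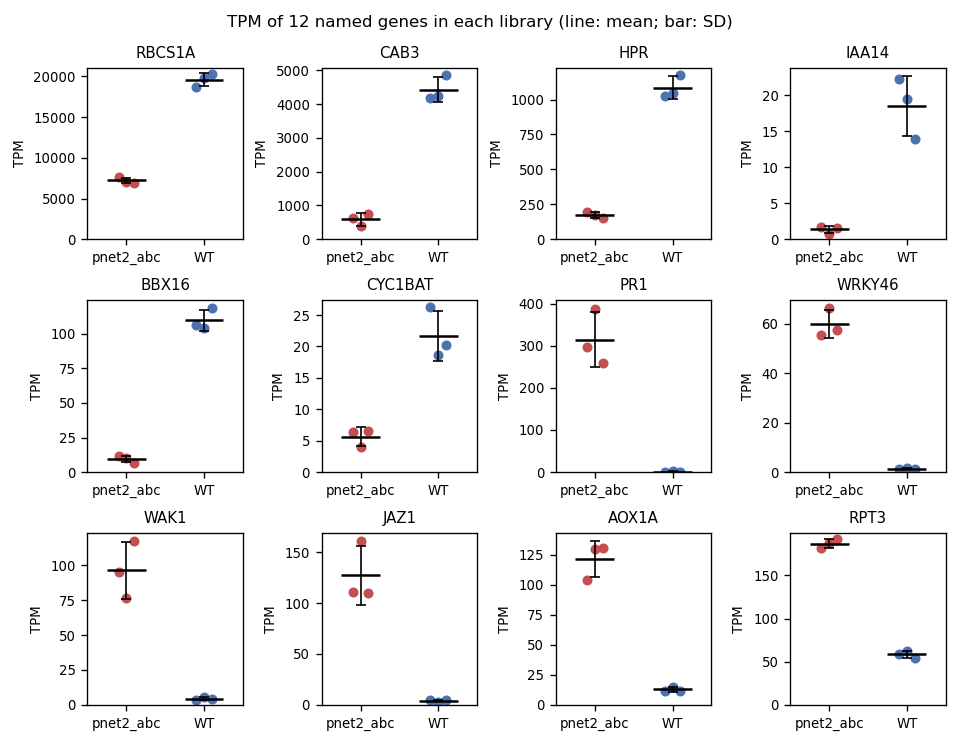
TPM of 12 genes named in the text, on axes that start at 0, with pnet2_abc left of WT; points are libraries, lines means and bars the SD (n = 3 each). In every panel the 3 pnet2_abc points lie on one side of the 3 WT points, and by CPM this held for 69.4% of all tested genes.

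Photosynthesis genes were lower in pnet2_abc almost without exception. Of 58 nuclear genes for photosystem and light-harvesting proteins 57 fell and 0 rose, 56 of them at least 2-fold, with a median log2 fold change of -1.93 and quartiles of -2.21 and -1.77; edgeR at an unadjusted p of 0.05, DESeq2 and limma on TPM also gave 0 rises. LHCB2.3 fell most (54.3 ± 24.1 CPM in pnet2_abc and 824 ± 59.8 CPM in WT; log2 fold change -3.92 ± 0.24 (SE), edgeR adjusted p = 1.0e-08), with a 595-base overlap by an opposite-strand gene whose reads cannot be told apart. CAB3 had 446, 288 and 554 CPM in the pnet2_abc libraries, against 3485, 3594 and 4246 CPM in the WT libraries (log2 fold change -3.14 ± 0.18 (SE), edgeR adjusted p = 6.5e-09). The antenna genes Lhca6 and LHB1B1 followed, at -3.09 ± 0.088 and -2.78 ± 0.16 (log2 fold change ± SE). Of 22 Calvin cycle and photorespiration genes 20 fell, with a median of -2.16, the lowest of all groups. The summed mesophyll markers given above, which are photosynthesis genes themselves, moved with these groups, and the part of mesophyll cell number was not tested. HPR, the peroxisomal hydroxypyruvate reductase of photorespiration, had 196, 182 and 160.5 CPM in the pnet2_abc libraries, against 1198, 1248 and 1446 CPM in the WT libraries (log2 fold change -2.86 ± 0.091 (SE), edgeR adjusted p = 4.8e-11), and GLDP1, a subunit of glycine decarboxylase, averaged 329 ± 16.4 CPM in pnet2_abc and 2153 ± 259 CPM in WT. Only GOX3, a glycolate oxidase family gene, and the aldolase gene PDE345 rose, by log2 fold changes of 2.55 ± 0.16 and 0.94 ± 0.068.

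Called genes of chlorophyll synthesis and of plastid gene expression were mostly lower as well. Among 26 tested genes of tetrapyrrole synthesis, the route to chlorophyll, 23 fell and 1 rose (median -1.41). POR C, a light-dependent protochlorophyllide oxidoreductase, averaged 26.5 ± 6.97 CPM in pnet2_abc and 181 ± 10.01 CPM in WT, GUN4 averaged 66.5 ± 3.12 CPM in pnet2_abc and 389 ± 22.5 CPM in WT (its 946-base opposite-strand overlap leaves the reads of the pair inseparable), and the magnesium chelatase gene CHLI2 averaged 16.7 ± 1.56 CPM in pnet2_abc and 86.5 ± 4.96 CPM in WT. The 1 riser was HEMA2, the glutamyl-tRNA reductase gene of non-green tissue and stress (48.2 ± 2.64 CPM in pnet2_abc and 24.1 ± 2.69 CPM in WT). Plastid ribosomal protein genes numbered 17, of which 13 fell and 2 rose (median -1.68), led by AT5G24490 at -2.47 ± 0.10. The mTERF family, regulators of organelle gene expression, had 19 of 31 members lower and 2 higher (median -0.70), led by AT2G34620 at -2.94 ± 0.078. Of 95 tested chloroplast-encoded genes 40 fell and 0 rose (median -1.13), with 0 rises also at an unadjusted p of 0.05, by DESeq2 and by limma. Their share of all counts, small in libraries made from messenger RNA, was 0.0489 ± 0.00744% in pnet2_abc and 0.10 ± 0.00599% in WT.

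**Figure D2:**
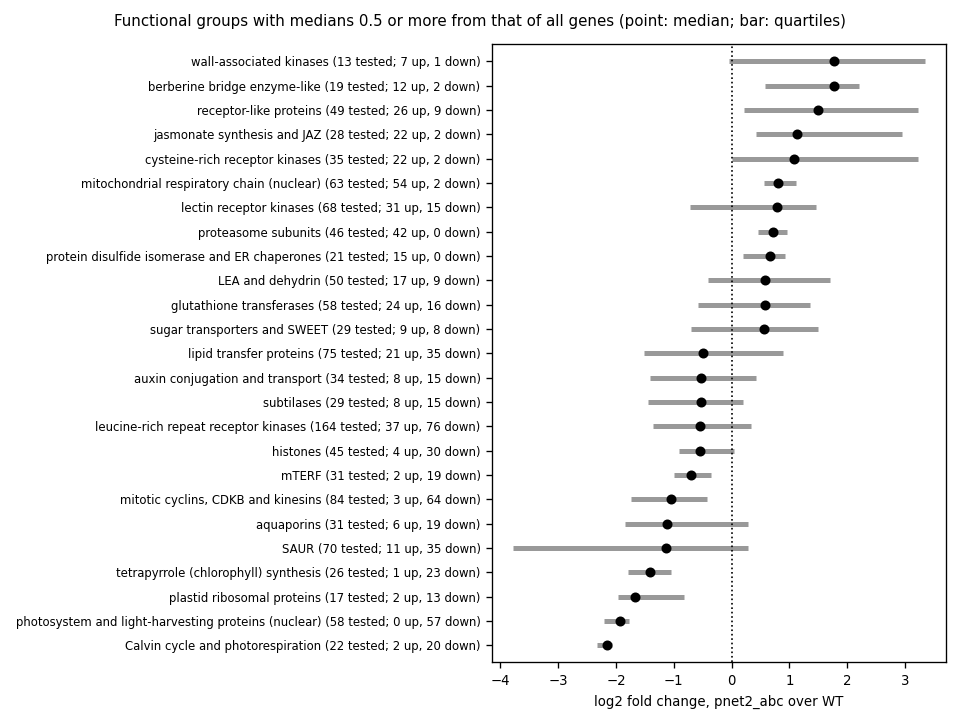
Functional groups whose median log2 fold change (pnet2_abc over WT) lay 0.5 or more from that of all tested genes; points are medians over tested members, bars run between quartiles and the dotted line is the median of all genes. The photosynthesis and plastid groups lie lowest, with medians from -2.16 to -1.41, and the wall-associated kinases and berberine bridge enzyme-like genes highest, at 1.77 each.

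LHCB2.3 is shown because its promoter holds a G-box (CACGTG), the core read by light-signalling bZIP and bHLH factors; among the 58 photosystem genes 36.2% held a G-box and 41.4% an I-box (GATAAG), against 8.57% and 14.8% of all 22066 promoters of tested protein-coding genes. CYC1BAT (AT5G06150), a B-type mitotic cyclin, is shown because its promoter holds AACGGC, the mitosis-specific activator core. Of the set of mitotic cyclin, B-type cyclin-dependent kinase and kinesin genes 25% held it, against 7.26% of all. Promoters are 250 bases before to 50 after the annotated gene start, taken from the RefSeq assembly TAIR10.1, written 5′ to 3′ on the gene's strand with the match in capitals. Both strands were searched, so that a match may read as its reverse complement, and a match is a description of the letters, not of binding. These genes were picked for holding the motif, after their values were known.
LHCB2.3 promoter, chr3:10255656-10255955, plus strand: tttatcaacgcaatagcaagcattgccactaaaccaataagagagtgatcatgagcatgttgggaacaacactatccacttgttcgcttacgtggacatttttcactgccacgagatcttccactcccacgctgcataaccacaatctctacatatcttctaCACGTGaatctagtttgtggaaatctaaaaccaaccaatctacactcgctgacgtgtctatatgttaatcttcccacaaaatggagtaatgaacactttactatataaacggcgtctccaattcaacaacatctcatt
CYC1BAT promoter, chr5:1861654-1861953, minus strand: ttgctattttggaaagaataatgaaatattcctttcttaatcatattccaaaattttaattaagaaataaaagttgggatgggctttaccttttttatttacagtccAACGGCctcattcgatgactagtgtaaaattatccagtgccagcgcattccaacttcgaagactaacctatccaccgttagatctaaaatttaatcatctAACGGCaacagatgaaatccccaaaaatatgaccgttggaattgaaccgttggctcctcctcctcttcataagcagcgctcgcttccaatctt

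Most called genes were lower in sets for mitotic cyclins with kinesins, for histones and for DNA replication. Kinesins were taken in by name, whether or not they act in division. Of 84 mitotic cyclin, B-type cyclin-dependent kinase and kinesin genes 64 fell, 43 of them at least 2-fold, and 3 rose (median -1.04). The 4 largest falls were of the kinesin-like genes AT4G38950 (12.9 ± 3.67 CPM in pnet2_abc and 105 ± 11 CPM in WT) and KICP-02 (-2.58 ± 0.11) and of the cyclins CYCA2;3 (-2.17 ± 0.11) and CYC1BAT. CYC1BAT, whose promoter is given above, had 6.69, 4.3 and 7.02 CPM in the pnet2_abc libraries, against 31.7, 22.9 and 25.7 CPM in the WT libraries (log2 fold change -2.16 ± 0.18 (SE), edgeR adjusted p = 1.8e-07). The histone genes, mostly expressed in S phase, moved less: 30 of 45 fell and 4 rose (median -0.55), led by HTA13 at -1.51 ± 0.079. For DNA replication genes the median was -0.36, with 29 of 56 lower and 8 higher.

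Most called genes of auxin conjugation and transport and of water channels fell. Small auxin-up RNA (SAUR) genes, which promote cell expansion, numbered 70 tested of 78; 35 fell and 11 rose, and the spread was wide, with a median of -1.13 and quartiles of -3.78 and 0.28. AT5G18030 averaged 0.359 ± 0.331 CPM in pnet2_abc and 12.5 ± 0.463 CPM in WT and SAUR68 0.533 ± 0.0696 CPM in pnet2_abc and 15.1 ± 0.456 CPM in WT, while AT2G35290, which rose, averaged 16.7 ± 4.68 CPM in pnet2_abc and 0.647 ± 0.504 CPM in WT. Among genes of auxin conjugation and transport 15 of 34 fell and 8 rose (median -0.53), the efflux carrier PIN4 (13.6 ± 1.83 CPM in pnet2_abc and 73.7 ± 13.2 CPM in WT) and the influx carrier LAX2 (-2.29 ± 0.11) most. PBS3, GH3.3 and WES1 of the GH3 family rose; PBS3 acts in salicylic acid synthesis rather than on auxin. Aquaporins, the water channels of the plasma membrane and vacuole, had 19 of 31 lower and 6 higher (median -1.12). PIP3 had 109, 147 and 131 CPM in the pnet2_abc libraries, against 918, 834 and 594 CPM in the WT libraries (log2 fold change -2.60 ± 0.21 (SE), edgeR adjusted p = 1.2e-07). In expansins, which loosen walls, members moved both ways around a median of -0.089: 10 rose, EXLA1 most (213 ± 25.1 CPM in pnet2_abc and 6.54 ± 1.82 CPM in WT), and 9 fell, EXPA8 most (1.69 ± 0.747 CPM in pnet2_abc and 26.2 ± 2.24 CPM in WT).

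Several receptor and signalling groups of immunity had medians above that of all genes. Of 13 wall-associated kinase genes, whose products bind pectin, 7 rose and 1 fell (median 1.77). WAK1 had 155, 131 and 195 CPM in the pnet2_abc libraries, against 6.42, 11.2 and 7.98 CPM in the WT libraries (log2 fold change 4.23 ± 0.35 (SE), edgeR adjusted p = 1.8e-07). For receptor-like proteins the counts were 26 higher and 9 lower of 49 (median 1.49), RLP22 leading with 28.5 ± 3.87 CPM in pnet2_abc and 0.306 ± 0.0655 CPM in WT. The largest fall in that family was of TMM (5.8 ± 1.3 CPM in pnet2_abc and 26.4 ± 4.3 CPM in WT), which patterns stomata rather than sensing microbes. Cysteine-rich receptor kinases gave 22 higher and 2 lower of 35 (median 1.08), led by CRK6 (20.4 ± 5.1 CPM in pnet2_abc and 0.27 ± 0.141 CPM in WT), and lectin receptor kinases 31 higher and 15 lower of 68 (median 0.78). The leucine-rich repeat receptor kinases, which serve growth as well as immunity, went the other way, with 76 of 164 lower and 37 higher (median -0.54). Their largest rise was of FLS2, the flagellin receptor, with 97.6, 108 and 103 CPM in the pnet2_abc libraries, against 3.05, 3.69 and 3.37 CPM in the WT libraries (log2 fold change 4.93 ± 0.30 (SE), edgeR adjusted p = 1.0e-08).

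Calcium sensors and kinases had 42 of 89 higher and 16 lower (median 0.50), led by CML38 (74.2 ± 21.7 CPM in pnet2_abc and 1.58 ± 0.363 CPM in WT). In the MAP kinase cascade 23 of 49 rose and 12 fell (median 0.29), MPK11, MEKK3, MKK4 and MPK3 leading with log2 fold changes of 4.55 ± 0.51, 1.72 ± 0.14, 1.63 ± 0.14 and 1.58 ± 0.092. Intracellular NBS-LRR resistance genes gave 59 higher and 23 lower of 147 (median 0.35). Berberine bridge enzyme-like genes, oxidases that include inactivators of cell wall oligosaccharides, had 12 of 19 higher and 2 lower (median 1.77); AT4G20830 rose most, but a 1570-base opposite-strand overlap leaves it inseparable from its partner, and AT1G26420 followed with 20.7 ± 1.97 CPM in pnet2_abc and 2.03 ± 0.898 CPM in WT. Glutathione transferases gave 24 higher and 16 lower of 58 (median 0.57), and GSTF6 averaged 1312 ± 227 CPM in pnet2_abc and 52.6 ± 30.2 CPM in WT. Over all tested genes 32.5% were higher and 32.0% lower. The shares were 46.9% and 24.5% for the MAP kinase cascade, 40.1% and 15.6% for NBS-LRR genes, and 41.4% and 27.6% for glutathione transferases.

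Jasmonate genes rose in most cases. JAZ proteins repress jasmonate responses and are themselves induced by the hormone. Of 28 jasmonate synthesis and JAZ genes 22 rose and 2 fell (median 1.13, quartiles 0.42 and 2.94). JAZ5 averaged 17.6 ± 4.31 CPM in pnet2_abc and 0.542 ± 0.311 CPM in WT. JAZ1 had 101, 154 and 102 CPM in the pnet2_abc libraries, against 4.85, 3.47 and 5.26 CPM in the WT libraries (log2 fold change 4.72 ± 0.24 (SE), edgeR adjusted p = 1.5e-09), and the lipoxygenase gene LOX4 averaged 59.3 ± 12 CPM in pnet2_abc and 3.01 ± 0.675 CPM in WT. The largest fall was of TIFY7 (28.7 ± 6.42 CPM in pnet2_abc and 73.9 ± 6.34 CPM in WT). Promoters were searched for the W-box (TTGACC or TTGACT), the core bound by WRKY factors: 28.6% of the promoters of genes at least 2-fold higher, 18.3% of those at least 2-fold lower and 22.1% of all held TTGACT, and 16.8% of the promoters of genes at least 2-fold higher, 12.1% of those at least 2-fold lower and 14.4% of all held TTGACC.

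Called nuclear genes of the mitochondrial respiratory chain, the proteasome and endoplasmic reticulum protein folding mostly rose. Of 63 nuclear genes for the respiratory chain 54 rose and 2 fell (median 0.80, quartiles 0.56 and 1.11). AOX1A, the alternative oxidase that marks mitochondrial dysfunction, had 107, 141 and 138 CPM in the pnet2_abc libraries, against 14.3, 18.1 and 14.6 CPM in the WT libraries (log2 fold change 3.04 ± 0.15 (SE), edgeR adjusted p = 1.8e-09); subunits of succinate dehydrogenase followed, SDH2-1 at 2.00 ± 0.21, with a 328-base overlap by a same-strand gene, SDH8 at 1.64 ± 0.14 and SDH1-1 at 1.61 ± 0.070. The largest fall was of NDA1, a light-regulated alternative NAD(P)H dehydrogenase, with 12.1, 10.7 and 13.8 CPM in the pnet2_abc libraries, against 224, 204 and 242 CPM in the WT libraries (log2 fold change -4.19 ± 0.12 (SE), edgeR adjusted p = 2.6e-11). Of 48 tested genes encoded in the mitochondrion 4 fell and 0 rose (median -0.30; 0 rose at an unadjusted p of 0.05 and by DESeq2, and 1 by limma). Proteasome subunit genes gave 42 higher and 0 lower of 46 (median 0.71, quartiles 0.45 and 0.95), with 0 lower at an unadjusted p of 0.05, by DESeq2 and by limma. RPT5B rose most (54.8 ± 2.43 CPM in pnet2_abc and 16.2 ± 0.0937 CPM in WT), and RPT3, a regulatory particle ATPase, had 219.7, 238 and 238 CPM in the pnet2_abc libraries, against 82.2, 89.5 and 80.4 CPM in the WT libraries (log2 fold change 1.46 ± 0.064 (SE), edgeR adjusted p = 4.5e-10). Protein disulfide isomerase and endoplasmic reticulum chaperone genes had 15 of 21 higher and 0 lower (median 0.66; again 0 lower at an unadjusted p of 0.05, by DESeq2 and by limma), led by PDIL1-1 at 1.5 ± 0.086.

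Site II (TGGGCC), a promoter element of ribosomal and mitochondrial protein genes, stood in 54.3% of proteasome promoters, 33.3% of respiratory chain promoters and 57% of cytosolic ribosomal protein promoters, against 17.7% of all. The last group had a median near that of all genes. Site II stood in 12.75% of the promoters of genes at least 2-fold higher and 13.04% of those at least 2-fold lower. Both shares lay below the 17.7% of all. RPT3 is shown for its site II matches and AOX1A for its W-boxes.
RPT3 promoter, chr5:23568802-23569101, plus strand: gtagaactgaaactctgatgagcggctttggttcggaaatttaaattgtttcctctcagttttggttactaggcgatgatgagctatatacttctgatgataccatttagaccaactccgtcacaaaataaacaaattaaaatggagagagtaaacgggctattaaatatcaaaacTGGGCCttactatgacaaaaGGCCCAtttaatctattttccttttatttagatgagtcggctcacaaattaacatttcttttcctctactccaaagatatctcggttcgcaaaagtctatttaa
AOX1A promoter, chr3:7906271-7906570, plus strand: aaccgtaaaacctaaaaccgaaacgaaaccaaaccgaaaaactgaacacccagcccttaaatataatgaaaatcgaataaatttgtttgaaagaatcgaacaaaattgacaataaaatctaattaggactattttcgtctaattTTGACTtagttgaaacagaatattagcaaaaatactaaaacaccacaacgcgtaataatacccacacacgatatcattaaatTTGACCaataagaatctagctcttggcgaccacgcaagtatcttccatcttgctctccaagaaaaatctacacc

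Several large groups lay close to the median of all genes. Cytosolic ribosomal protein genes, among the most abundant classes of messenger RNA, had 13 of 86 higher and 37 lower, but only 3 and 3 at least 2-fold (median -0.15, quartiles -0.33 and 0.0029). The largest fall in this set was of RPL21C, at -2.18 ± 0.071. It is annotated only as ribosomal protein L21, a name that gives no compartment, so it may not belong with the cytosolic proteins. Their share of all counts was 1.89 ± 0.0408% in pnet2_abc and 1.9 ± 0.0793% in WT (exact two-sided permutation p = 0.9). For nucleolar ribosome biogenesis genes the median was 0.024. Heat shock protein genes had 25 higher and 25 lower of 67 (median -0.016), with HSP18.2 rising most (27.1 ± 2.85 CPM in pnet2_abc and 3.22 ± 1.3 CPM in WT). Cytochrome P450 genes split evenly, 64 higher and 67 lower of 200, between large changes in either direction: CYP71B19 averaged 48.6 ± 3.95 CPM in pnet2_abc and 1.04 ± 0.191 CPM in WT, and CYP706A6 averaged 2.17 ± 1.25 CPM in pnet2_abc and 37.5 ± 0.776 CPM in WT. A median near that of all genes was found both in groups that hardly moved and in groups that moved strongly both ways.

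Genes of the nuclear envelope, the compartment of the PNET2 proteins, were called about as often as all genes. Of 38 tested genes for nuclear pore, SUN and lamina proteins 18 rose and 9 fell (median 0.23), 5 and 2 of them at least 2-fold, so that 71.1% were called, against 64.5% of all genes. AT1G59660 (chr1:21923986-21929437, plus strand), annotated as a nucleoporin autopeptidase, had 439.8, 534 and 474 CPM in the pnet2_abc libraries, against 6.12, 8.69 and 7.64 CPM in the WT libraries (log2 fold change 6.01 ± 0.18 (SE), edgeR adjusted p = 3.3e-11). In the other direction, WIP2, a protein of the nuclear envelope, averaged 7.85 ± 0.819 CPM in pnet2_abc and 22 ± 0.838 CPM in WT. LINC1, a coiled-coil protein of the plant lamina, averaged 59.1 ± 5.23 CPM in pnet2_abc and 125 ± 3.19 CPM in WT. Genes for chromatin remodelling and histone modification had 19 of 97 higher and 28 lower (median -0.068).

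Across all transcription factor families 355 of 1138 tested genes rose and 416 fell, with a median of -0.12. Together 67.8% were called, close to the 64.5% of all tested genes, of which 32.5% rose and 32.0% fell. Of 24 families with at least 10 tested members, 3 had a median at least 0.5 above that of all genes and 10 at least 0.5 below it. WRKY factors, regulators of immunity, ranked highest: 39 of 65 rose and 6 fell, 33 and 2 at least 2-fold (median 1.31, quartiles 0.10 and 2.65). WRKY46 had 44, 55.1 and 46.7 CPM in the pnet2_abc libraries, against 1.29, 1.45 and 1.13 CPM in the WT libraries (log2 fold change 5.23 ± 0.44 (SE), edgeR adjusted p = 2.4e-07). WRKY50 averaged 12.3 ± 0.72 CPM in pnet2_abc and 0.417 ± 0.474 CPM in WT and WRKY40 78.4 ± 12.6 CPM in pnet2_abc and 2.65 ± 0.465 CPM in WT. In the promoters of WRKY genes themselves TTGACT stood in 29.2%, against 22.1% of all, and TTGACC in 13.8%, against 14.4% of all. The AP2/ERF factors of ethylene and stress responses gave 57 higher and 26 lower of 114 (median 0.93), and their upper quartile, 3.32, was the highest of the ranked families; ERF11 averaged 22.3 ± 6.6 CPM in pnet2_abc and 0.332 ± 0.305 CPM in WT. NAC factors gave 45 higher and 15 lower of 87 (median 0.64).

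NAC019, which acts in abscisic acid and jasmonate responses, had 19.8, 26.5 and 29.9 CPM in the pnet2_abc libraries, against 0.263, 0.145 and 0.162 CPM in the WT libraries (log2 fold change 7.04 ± 1.09 (SE), edgeR adjusted p = 7.4e-05). Its libraries did not overlap between genotypes, as held for 69.4% of all tested genes. CUC1, the boundary gene named above, ranked second among NAC risers. The small calmodulin-binding family, with 9 tested members and so not ranked, held SARD1 (58 ± 5.19 CPM in pnet2_abc and 0.993 ± 0.0844 CPM in WT; a 640-base opposite-strand overlap leaves the pair inseparable) and CBP60G (53.1 ± 6.13 CPM in pnet2_abc and 10.4 ± 0.68 CPM in WT), which promote salicylic acid synthesis. Heat shock factors and CCCH zinc finger genes had medians of 0.35 and 0.32.

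**Figure D3:**
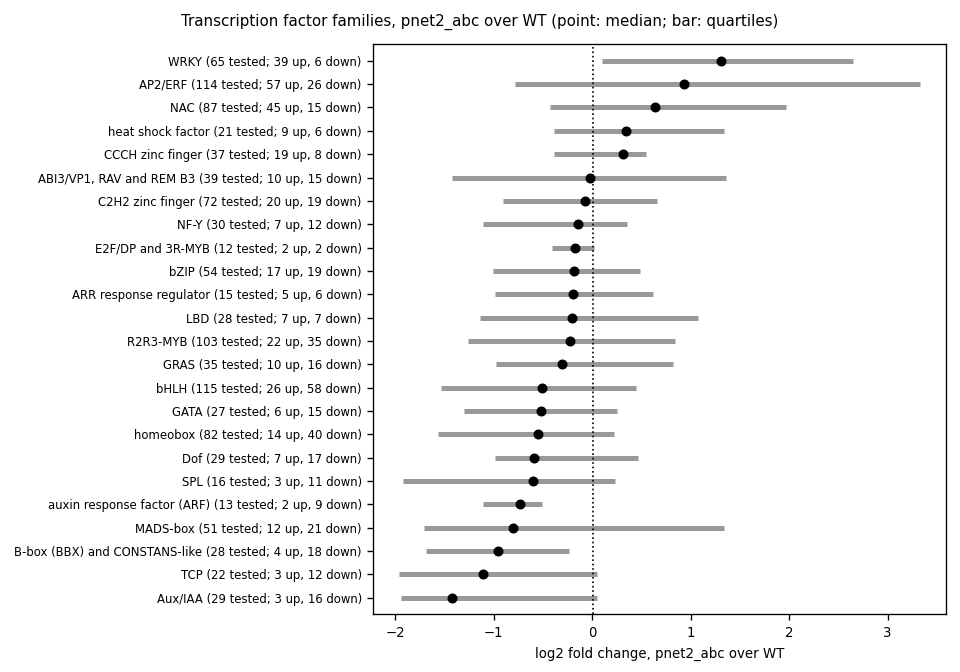
The 24 transcription factor families with at least 10 tested members, ranked by the median log2 fold change of pnet2_abc over WT; points are medians, bars run between quartiles, and the labels give the genes tested and called. WRKY, AP2/ERF and NAC lie highest and Aux/IAA and TCP lowest, the ranks of Aux/IAA and TCP depending on the treatment of low counts.

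At the lower end of the ranking, Aux/IAA repressors of auxin signalling had 16 of 29 genes lower and 3 higher (median -1.42). With 0.5 CPM added before logs, their medians in the 3 pnet2_abc libraries relative to the WT mean were -0.56, -0.48 and -0.47. For the B-box factors below they were -0.93, -0.88 and -0.97, so the lowest rank of Aux/IAA depended on the treatment of low counts. SAUR and MADS-box medians shrank likewise (-0.46, -0.78 and -0.62 for SAUR, -0.24, -0.26 and -0.32 for MADS-box). TCP, homeobox and bHLH medians shrank too (-0.63, -0.97 and -0.82 for TCP, -0.31, -0.44 and -0.42 for homeobox, -0.34, -0.40 and -0.49 for bHLH). The rank of TCP and the count of families at least 0.5 below all genes were thus less firm. IAA14 had 1.76, 0.823 and 1.62 CPM in the pnet2_abc libraries, against 26.1, 23.2 and 17.2 CPM in the WT libraries (log2 fold change -3.98 ± 0.23 (SE), edgeR adjusted p = 6.7e-09). Auxin response factors, their partners, gave 9 lower and 2 higher of 13 (median -0.73), led by ARF11 at -2.71 ± 0.16. TCP factors of leaf and shoot growth gave 12 lower and 3 higher of 22 (median -1.11), TCP14 averaging 12.8 ± 1.54 CPM in pnet2_abc and 59.6 ± 1.1 CPM in WT; the largest rise was of PTF1 at 1.62 ± 0.13. B-box factors of light signalling gave 18 lower and 4 higher of 28 (median -0.96). BBX16 had 11.2, 10.6 and 6.97 CPM in the pnet2_abc libraries, against 123.2, 122.8 and 144 CPM in the WT libraries (log2 fold change -3.76 ± 0.16 (SE), edgeR adjusted p = 3.5e-10). Growth-regulating factors, with 9 tested and so not ranked, had 6 lower and 0 higher (median -1.25; 0 higher also at an unadjusted p of 0.05, by DESeq2 and by limma).

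Broader families were lower with members at both extremes. MADS-box genes gave 21 lower and 12 higher of 51 tested of 89 listed (median -0.80): SEP3 rose most of those with at least 5 CPM, whereas AGL87 (1.63 ± 0.587 CPM in pnet2_abc and 26.7 ± 5.68 CPM in WT), SEP4 (-2.55 ± 0.15) and SVP (8.97 ± 1.49 CPM in pnet2_abc and 46.3 ± 8.36 CPM in WT), a floral repressor, fell. The bHLH family gave 58 lower and 26 higher of 115 (median -0.51); AT4G01460 fell most, and SCRM2, a stomatal lineage factor, averaged 5.01 ± 0.91 CPM in pnet2_abc and 48.2 ± 2.3 CPM in WT. Homeobox genes had 40 lower and 14 higher of 82 (median -0.55), yet HB6, of abscisic acid signalling, was abundant and rose (615, 573 and 582 TPM in the pnet2_abc libraries, against 88.7, 91.2 and 92.7 TPM in the WT libraries; log2 fold change 2.48 ± 0.11 (SE), edgeR adjusted p = 7.0e-10). SPL, Dof and GATA families had medians of -0.60, -0.59 and -0.52. R2R3-MYB genes lay near the middle (22 higher and 35 lower of 103, median -0.23) but held MYB15 (34.9 ± 7.99 CPM in pnet2_abc and 1.08 ± 0.294 CPM in WT), a regulator of defence lignin, and MYB29 (0.643 ± 0.389 CPM in pnet2_abc and 33.9 ± 2.8 CPM in WT), a regulator of aliphatic glucosinolates, at opposite ends.

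Shares of the count total were compared for a few of these groups. Photosystem and light-harvesting genes held 2.85 ± 0.316% in pnet2_abc and 10.5 ± 0.531% in WT, and Calvin cycle and photorespiration genes 1.81 ± 0.0993% in pnet2_abc and 6.61 ± 0.067% in WT, as shares of all counts. For each share in this paragraph, except those of heat shock proteins and of the set chosen on pnet2_abc, the 3 pnet2_abc libraries lay on one side of the 3 WT libraries, with an exact two-sided permutation p of 0.1, the smallest that 3 against 3 allows. Respiratory chain genes held 0.713 ± 0.0459% in pnet2_abc and 0.35 ± 0.0146% in WT. Proteasome genes held 0.543 ± 0.0149% in pnet2_abc and 0.286 ± 0.00936% in WT, and glutathione transferases 0.744 ± 0.0696% in pnet2_abc and 0.332 ± 0.0122% in WT. The 100 genes with the most counts in WT held 9.21 ± 0.443% in pnet2_abc and 23.6 ± 0.50% in WT, a set chosen on the WT libraries themselves, whereas the 100 genes with the most counts in pnet2_abc held 15.2 ± 0.278% in pnet2_abc and 15.2 ± 0.346% in WT (exact two-sided permutation p = 0.8). Heat shock protein genes held 0.772 ± 0.0467% in pnet2_abc and 0.817 ± 0.025% in WT (exact two-sided permutation p = 0.3). The annotated nuclear ribosomal RNA genes held 0.415 ± 0.0555% in pnet2_abc and 0.109 ± 0.00829% in WT, a share of ribosomal RNA left in the libraries that moved with genotype; its part in the other results was not tested.

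**Figure D4:**
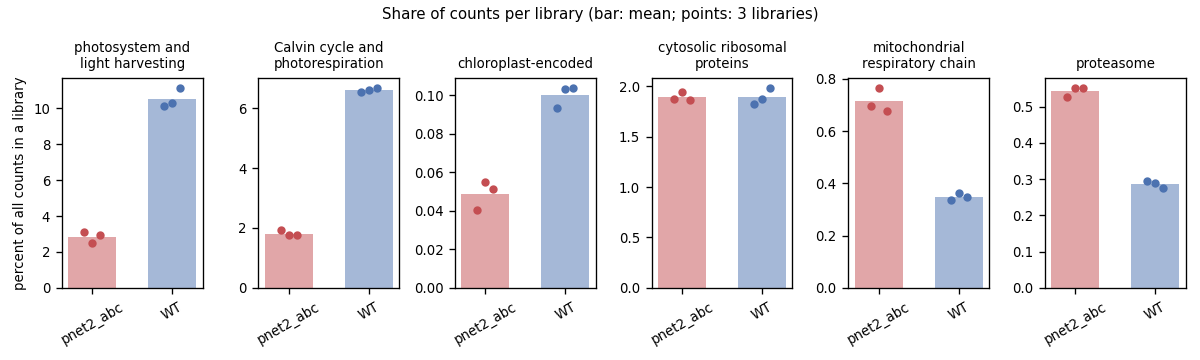
Share of each library's counts, in percent, held by sets of genes, with pnet2_abc left of WT and 1 point a library. Bars are means. The photosystem, Calvin cycle and chloroplast-encoded sets hold a smaller share in pnet2_abc, the respiratory chain and proteasome sets a larger one, and the cytosolic ribosomal protein shares overlap.

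Changes were spread over the genome. By chromosome, 15.03% to 17.02% of tested genes were at least 2-fold higher and 16.6% to 18.8% at least 2-fold lower. Genes under 1 Mb from an assembly gap of the centromere region were 13.6% higher and 18.4% lower by that rule, and those over 8 Mb away 15.9% and 17.8%. Gene structure showed a wider range: of single-exon protein-coding genes 24.1% were at least 2-fold higher and 20.03% lower, against 9.0% and 15.3% of genes with 10 or more exons. Of 18 small nuclear RNA genes tested 11 were at least 2-fold higher (61.1%) and 1 lower (5.56%). Of 148 small nucleolar RNA genes 41 were higher (27.7%) and 4 lower (2.70%). Over all tested genes these shares were 16.0% and 18.0%. Of the small nucleolar RNA genes 33.8% were called, against 64.5% of all genes. The ribosomal RNA share given above moved with these RNA classes, and its part was not tested. Among 721 long non-coding RNA genes 30.1% were called, against 66.4% of protein-coding genes, and the share called followed level, 23.3% in the lowest decile of mean CPM and 85% in the highest.

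**Figure D5:**
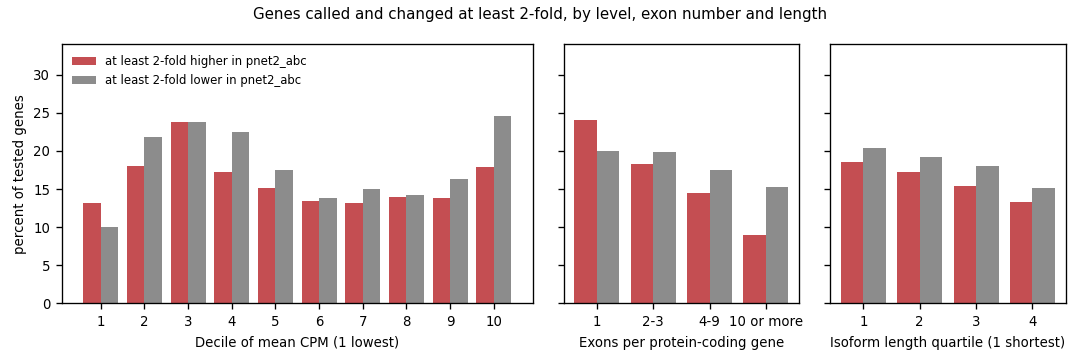
Percent of tested genes at least 2-fold higher and at least 2-fold lower in pnet2_abc than in WT, by decile of mean CPM, exon number and isoform length. Single-exon genes show larger shares in both directions than genes with 10 or more exons, and the shares are lower in the longest length quartile than in the shortest.

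Over all genes the motif shares differed modestly. The evening element (AAAATATCT) of clock-regulated genes stood in 4.34% of the promoters of genes at least 2-fold higher, 2.44% of those at least 2-fold lower and 2.94% of all. For the I-box the shares were 13.3% of the promoters of genes at least 2-fold higher, 19.9% of those at least 2-fold lower and 14.8% of all, and for the G-box 8.77% of the promoters of genes at least 2-fold higher, 9.67% of those at least 2-fold lower and 8.57% of all. Also searched were the telo box (AAACCCTA), the E2F sites (TTTCCCGC and TTTGGCGC), the GCC box (GCCGCC), the as-1 core (TGACG, which also lies inside the longer TGACGTCA), the heat shock element core (GAANNTTC), the DRE (CCGAC), the ABRE (ACACGTGG, which holds a G-box) and the auxin response element (TGTCTC). Their shares in the higher and lower sets lay between 0.424% and 25.8%.

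The double mutants are set beside the triple mutant for a few genes; the comparisons share the WT libraries. CAB3 averaged 429 ± 133 CPM in pnet2_abc, 3626 ± 282 CPM in pnet2_ac, 3939.6 ± 182 CPM in pnet2_bc and 3775 ± 411 CPM in WT. JAZ1 averaged 119 ± 30.1 CPM in pnet2_abc, 7.5 ± 1.58 CPM in pnet2_ac, 6.79 ± 1.23 CPM in pnet2_bc and 4.53 ± 0.938 CPM in WT. For WRKY46 the averages were 48.6 ± 5.8 CPM in pnet2_abc, 2.38 ± 0.449 CPM in pnet2_ac, 2.0 ± 1.31 CPM in pnet2_bc and 1.29 ± 0.159 CPM in WT. AT1G59660 averaged 482 ± 47.5 CPM in pnet2_abc, 8.53 ± 1.66 CPM in pnet2_ac, 8.73 ± 0.869 CPM in pnet2_bc and 7.48 ± 1.29 CPM in WT. For all 4 genes the pnet2_abc average lay farther from the WT average than that of either double mutant. These 4 genes were picked among those with large changes in pnet2_abc, a choice that favours this order. It says nothing of other genes. Differences between the mutants were not tested here.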

How the data were processed

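Each library was made from untreated whole seedlings of 7 days, with RNA extracted from about 50 mg of tissue and strand-specific libraries, per the labels' protocols. The authors deposited whole-number read counts per gene for 27436 genes, not normalized, and TPM values of the same columns that sum to 1000000 per library. The build TAIR10 and the tools HISAT2 2.0.4 and HTSeq 0.6.1p1 are named in the submitters' processing notes; the strand setting of the counting is not given in the sources used here, so reads of a gene and of an opposite-strand gene over the same bases cannot be told apart. All 27436 gene IDs were looked up, and 27173 matched the RefSeq annotation of TAIR10.1, the rest being 263 organelle genes.

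The counts of all 12 libraries were fitted with edgeR 4.0.16 (filterByExpr, TMM, 1 mean per genotype, quasi-likelihood test, Benjamini-Hochberg adjustment, threshold 0.05), and pnet2_abc was contrasted with WT. CPM values use the TMM-adjusted library. The code was tested on simulated counts. For a gene without a count in a genotype, folds were taken against a floor of 3 counts over its 3 libraries together (0.0137 CPM for WT and 0.0132 CPM where pnet2_abc had no count), which covers counting error only. Functional groups and transcription factor families were built from annotated symbols and product names, and are described by counts of called genes and the median beside all genes, with no set test; groups with under 10 tested members were not ranked. Shares of counts were compared by exact permutation over libraries.

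Members, lists and tests were chosen with earlier results of these data known. Genes were named by rule: the 3 DUF2215 genes; the 12 largest called changes each way among protein-coding genes averaging 20 CPM or more, with under 300 bases of overlap; the 10 largest TPM differences each way; in each group up to 4 called genes in the direction of its median and 3 in the other, with a mean of at least 5 CPM, in order from the largest; and cell type markers. The genes set beside the double mutants, and the promoters printed, were chosen after their values were seen. Alternatives were other scalings, filters, DESeq2 1.42.0, limma 3.58.1 on log2(TPM + 1) and log2(TPM + 0.1), a replicate block and leaving out each library.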

Additional observations from a re-analysis of the deposited data

How the results depend on the processing

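Named genes kept their direction under every alternative run. Among named genes the calls of CASP1, XCP1 and the root hair marker RHD6 were lost in at least 1 setting, and those of AG and AP3 were gained. Leaving out 1 library at a time gave 14130 to 14388 genes called and 7573 to 7920 called at least 2-fold, and 35 to 38 groups with a median at least 0.5 from that of all genes (19 to 23 lower, 13 to 17 higher), against 38 with all libraries (23 lower, 15 higher). A mean of at least 5 CPM left 5054 genes called at least 2-fold (2276 higher, 2778 lower), fewer genes being tested. With no filter on low counts 15 groups lay at least 0.5 lower. By limma on log2(TPM + 1), 2577 genes were at least 2-fold lower and 3765 higher; with no filter these were 2611 and 3889, and 17 groups lay at least 0.5 away (8 lower, 9 higher). With log2(TPM + 0.1) the LBD median was 0.60, against -0.21 in the edgeR fit; the cause was not tested. The same numbered replicates deviated together by correlations of 0.030, 0.022 and 0.0039 only. Whether libraries of the same number shared growth or preparation is not stated, and these correlations cannot exclude it. With a replicate block 14939 genes were called and 7830 at least 2-fold. Depth leaves genes below the floor of 3 counts unresolved.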
